A study of Mus musculus with 9 samples.

Results

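The genes described here are Cd36, Fabp3, Lpl, Vldlr, Slc27a1, Slc27a2, Slc27a4 and Plin2, 8 genes of lipid uptake and storage among the 22180 genes that a probe set of the arrays named singly. They were listed by function around Cd36. The members, the other gene lists and the tests were chosen with earlier results of these data known. Where a gene had more than 1 probe set, the one used was chosen by its mean intensity over the 9 arrays. Cd36 headed the list because its lower level in diabetic kidney was already known from these arrays. The Cd36 difference between either diabetic group and the lean mice is therefore given as a description, with no p-value. RNA came from the renal cortex of male C57BLKS/J mice aged 20 weeks, with 3 arrays per group, which the labels call biological replicates. The lean controls were db/m mice, which keep 1 working copy of the leptin receptor gene. The db/db mice, with no working leptin receptor, eat in excess and become obese and diabetic, and this group received saline. The db/db+TSF mice had the same genotype and were gavaged with Tang-shen Formula (TSF), a mixture of Chinese medicinal herbs, at 2.4 g/kg/day, for 12 weeks before the kidneys were taken. Each of the db/db arms held 9 mice, and the labels do not say how the 3 arrayed mice were picked. No db/m mice given TSF were analysed here, so an effect of the formula could be read only against the diabetic background. The series asked which genes the formula acts on in diabetic kidney injury.

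Proximal tubule cells of the renal cortex burn fatty acids as their main fuel and take them up from blood and from the filtered fluid. Lipoprotein lipase releases fatty acids from circulating triglyceride at the vessel wall, the VLDL receptor binds the triglyceride-rich particles themselves, and CD36 and the FATP proteins bring long-chain fatty acids into cells, where FATP enzymes also couple them to coenzyme A. Fatty acid-binding proteins carry them through the cytosol, and what is not burned is stored in droplets coated by perilipin 2. CD36 is also a scavenger receptor for oxidised lipoproteins on macrophages, platelets and capillary endothelium.

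Markers of proximal tubule cells and podocytes, both found in renal cortex, were read on the arrays. All 13 proximal tubule markers were measured, with a summed intensity (the deposited linear brightness values added up) between 28330 and 31413 on the 9 arrays. The lowest value of the 4 podocyte markers that were read was 31.2. Array medians lay between 10.3 and 11.2. Array replicate 3 of db/db stood apart: its 7 neutrophil markers summed to 470, against 46 to 54 on the other 8 arrays, and its 4 platelet markers to 769, against 173 to 210.

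Cd36, the fatty acid translocase, fell into 3 separate levels. Its intensity was 1145, 1023 and 963 in db/m replicates 1, 2 and 3, then 251, 260 and 248 in db/db, then 182, 68.2 and 179 in db/db+TSF. Every db/db array lay below every db/m array, and every db/db+TSF array lay below every db/db array. The group means were 1044 ± 92.6, 252.7 ± 6.29 and 143 ± 64.8 (SD, n = 3 each), so the db/db mean was 24.2% and the db/db+TSF mean 13.7% of the db/m mean. On the log2(intensity + 1) scale, used for all differences below, the Cd36 difference was -2.04 (SE 0.29, 95% interval -2.68 to -1.39) for db/db against db/m, a 4.11-fold lower level. For db/db+TSF against db/m the Cd36 difference was -2.99 (SE 0.29, 95% interval -3.63 to -2.34), or 7.92-fold lower. Both differences use the same db/m arrays. Since Cd36 was listed for its lower level on these arrays, the 2 intervals describe the spread and do not test the fall. The replicates of db/m and db/db agreed closely (SD 0.13 and 0.04 on the log2 scale), while those of db/db+TSF did not (SD 0.80).

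**Figure D1:**
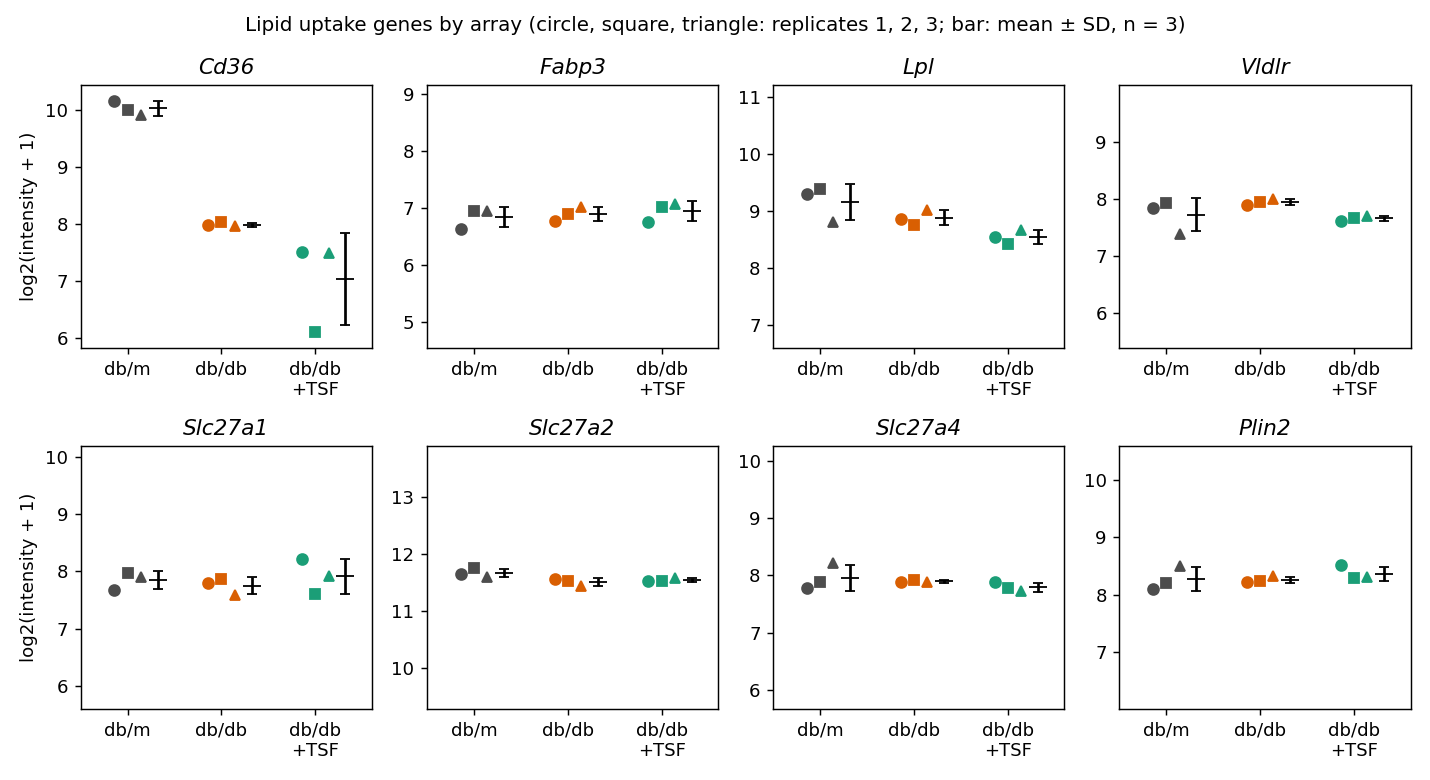
log2(intensity + 1) of the 8 genes on each array (points; circle, square and triangle for replicates 1, 2 and 3), with the mean and SD of 3 arrays beside each group; every panel spans the same height on the log2 scale. The Cd36 means are 10.03, 7.99 and 7.04 from left to right, and db/db+TSF replicate 2 lies at 6.11, while the other genes vary over a much smaller range.

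Whether the formula was followed by another level of Cd36 in diabetic mice was read from the 2 db/db groups. The level was 1.93-fold lower with TSF (log2 difference -0.95, SE 0.29, 95% interval -1.59 to -0.30), the 21st lowest of the 17740 differences in that comparison, and it did not pass the threshold of 0.05 after Benjamini-Hochberg adjustment over all genes (limma adjusted p = 0.289, unadjusted p = 0.0079). Much of it came from db/db+TSF replicate 2. Without that array the difference was -0.48 (SE 0.11, limma adjusted p = 0.482), and the 2 arrays that stayed, at 7.52 and 7.49 on the log2 scale, were still below the lowest db/db array at 7.96. The same array carries much of the SE of Cd36 in the other comparisons: without it the db/db against db/m difference kept its size, -2.04, with an SE of 0.10.

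The reference sequence before the start of Cd36 is shown because Cd36 was the member whose RNA differed most, beside those of Slc27a2 and Plin2, which hold the same short motif at nearly the same distance. Each is the 250 bases before a RefSeq transcript start, 5′ to 3′, from the GRCm38.p6 assembly of C57BL/6J, which is not the strain of these mice; capitals mark TGACCT, the reverse complement of AGGTCA, the half-site that many nuclear receptors, PPARs included, bind. Cd36 lies at chr5:17835897-17836146 on the minus strand, Slc27a2 at chr2:126552774-126553023 on the plus strand and Plin2 at chr4:86670060-86670309 on the minus strand.
Cd36: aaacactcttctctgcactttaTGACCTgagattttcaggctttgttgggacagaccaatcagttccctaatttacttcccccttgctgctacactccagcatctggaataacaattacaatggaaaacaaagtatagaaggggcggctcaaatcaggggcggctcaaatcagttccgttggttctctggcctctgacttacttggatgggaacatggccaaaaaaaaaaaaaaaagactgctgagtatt
Slc27a2: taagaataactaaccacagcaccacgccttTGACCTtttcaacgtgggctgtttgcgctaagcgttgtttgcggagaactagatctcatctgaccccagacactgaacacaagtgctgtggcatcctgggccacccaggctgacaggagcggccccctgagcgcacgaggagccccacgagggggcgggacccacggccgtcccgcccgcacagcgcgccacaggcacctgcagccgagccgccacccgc
Plin2: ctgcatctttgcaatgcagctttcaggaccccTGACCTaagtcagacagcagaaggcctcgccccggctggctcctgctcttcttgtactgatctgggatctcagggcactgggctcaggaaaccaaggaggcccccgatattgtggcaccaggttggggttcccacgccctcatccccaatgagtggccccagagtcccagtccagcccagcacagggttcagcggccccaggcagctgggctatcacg

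The half-site begins at base -228 in Cd36, -220 in Slc27a2 and -218 in Plin2, counted back from -1 at the base before the start. RefSeq windows were held for 7 of the 8 genes, 10 windows in all, and these 3 of them had the motif AGGTCA on either strand. Of all 32851 windows of the same length 14% had it. The full direct repeat AGGTCANAGGTCA, a strict form of the site that PPAR and RXR bind as a pair, was in 0 of the 10 windows and in 0.0335% of all windows. The 3 genes with these letters differed in the size of their change: the means in db/db were 24.2% of db/m for Cd36, 89.6% for Slc27a2 and 98.5% for Plin2. Over the 9 arrays, Pearson r with Cd36 was 0.68 for Slc27a2 and -0.21 for Plin2. Any part of the motif in these levels was not tested.

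Genes whose profile followed that of Cd36 most closely over the 9 arrays were Ncbp1, a cap-binding protein (Pearson r = 0.995), Proc, the anticoagulant protein C (0.993), Cyp7b1, a steroid and oxysterol hydroxylase (0.993), Cyp51, an enzyme of cholesterol synthesis (0.987), and Lztr1 (0.986). Since these 5 were picked for the highest r with Cd36, an order of group means like its own follows largely from that choice. The means of all 5 were lower in db/db than in db/m and lower again in db/db+TSF, where the second step did not pass for any of them, since 0 genes passed in that comparison. The db/db and db/db+TSF arrays overlapped for Cyp51 and not for the other 4. It was -0.16 for Ncbp1, -0.26 for Proc, -1.05 for Cyp7b1, -0.55 for Cyp51 and -0.19 for Lztr1 over all arrays, and -0.08, -0.16, -0.47, -0.07 and -0.12 without db/db+TSF replicate 2. The sizes for db/db against db/m were unequal on the log2 scale, with -2.84 for Cyp7b1 and -1.94 for Cyp51, against -0.40, -0.59 and -0.35 for Ncbp1, Proc and Lztr1. With each group's mean taken out, r with Cd36 was between 0.843 (Lztr1) and 0.945 (Cyp51), and without db/db+TSF replicate 2 it was between -0.03 (Lztr1) and 0.42 (Cyp7b1) over 8 arrays. The likeness within groups thus rests on that 1 array, and the likeness over all 9 on the gap between the groups (r from 0.978 to 0.995 without the array). These are descriptions of 9 arrays that share 3 groups and carry no p-value.

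**Figure D2:**
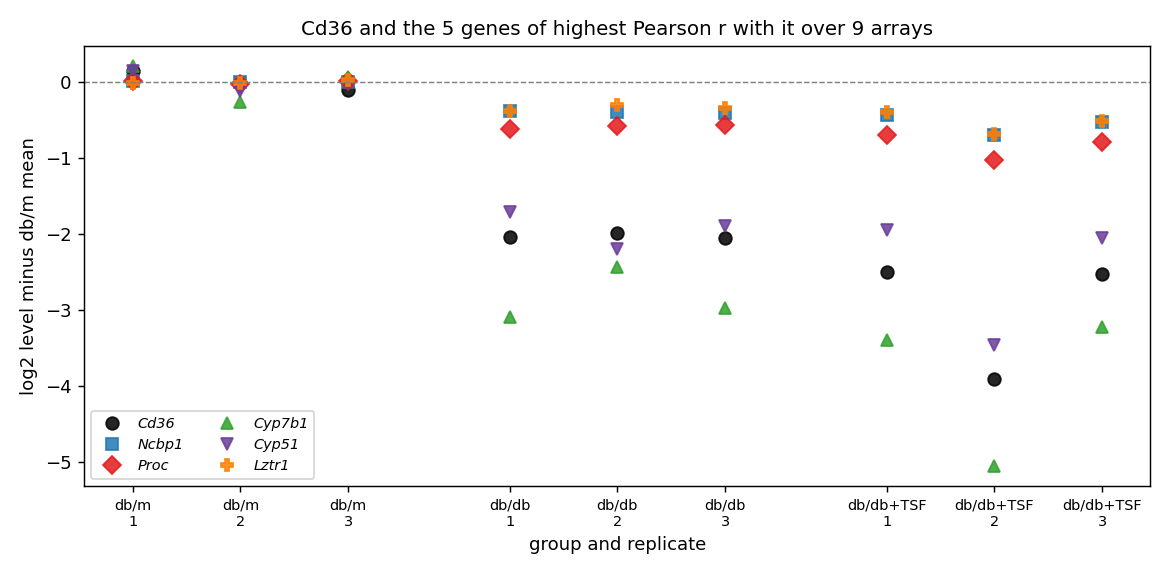
log2 level minus the gene's own db/m mean on each of the 9 arrays (points), for Cd36 and the 5 genes of highest Pearson r with it. All 6 genes lie below 0 on the 6 db/db and db/db+TSF arrays and lowest on db/db+TSF replicate 2.

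Markers of other cells that make Cd36 were read beside it. The summed intensity of 9 macrophage markers ranged over 609-653 for db/m, 493-593 for db/db and 399-503 for db/db+TSF. All 9 of them lay below 0 in db/db+TSF against db/m, and Adgre1, Csf1r, Cd68 and Tyrobp passed (limma adjusted p from 0.0239 to 0.0439), each of which failed in 4 to 7 of the 9 fits that omit an array, where the adjusted p reached 0.1, 0.102, 0.104 and 0.159. That of 10 endothelial markers ranged over 3324-3368, 3336-3447 and 3252-3356 in the same order, with 0 of 10 past the threshold in any comparison. The 7 adipocyte markers summed to 601-930 for db/m, 466-990 for db/db and 433-584 for db/db+TSF, so every db/db+TSF array lay below every db/m array while db/db overlapped both. Fabp4 made up most of this sum on every array. It measured 515, 746 and 544 in db/m and 481, 334 and 364 in db/db+TSF, so the gap in the sum is largely that of Fabp4. Of these 7 markers, 6 lay below 0 in db/db+TSF against db/m and 0 passed. The lowest single marker value was 13.7 for macrophage, 91.5 for endothelial and 5.63 for adipocyte markers. On db/db replicate 3, with 769 units of platelet markers, Cd36 was 248, against 251 and 260 on the other db/db arrays. In whole cortex, fewer cells of a type and less RNA per cell cannot be told apart, and the part of macrophage or adipocyte number in the Cd36 levels was not tested.

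The 13 proximal tubule markers as a whole overlapped between the groups, at 29081-31413 for db/m, 28330-30588 for db/db and 29785-30858 for db/db+TSF. One of them, Slc7a13, an amino acid transporter of the last proximal segment, had its lowest value on the same array as Cd36. Its intensity was 1845, 1781 and 1507 in db/m, 836, 792 and 430 in db/db, and 370, 76.3 and 626 in db/db+TSF, where replicate 2 was again the lowest. Unlike those of Cd36, its db/db and db/db+TSF arrays overlapped, and neither db/db against db/m (-1.37, SE 0.58, limma adjusted p = 0.326) nor db/db+TSF against db/db (-1.33, SE 0.58, limma adjusted p = 0.415) passed. It fell by 2.70 in db/db+TSF against db/m (SE 0.58, limma adjusted p = 0.0327), a call lost without db/m replicate 1, 2 or 3 (adjusted p = 0.101, 0.0812 and 0.0799) or db/db+TSF replicate 1 (0.051).

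Markers of other nephron segments were higher, as a sum, in both db/db groups than in db/m. The 9 markers of the loop of Henle, distal tubule and collecting duct summed to 8228-8564 for db/m, 9803-11107 for db/db and 9713-10725 for db/db+TSF, with db/m below all other arrays. The 2 db/db groups overlapped: in db/db+TSF against db/db, where Cd36 was lower again, 4 of the 9 lay above 0 and 5 below, with a median of -0.11. Of the 9, 1 rose in each comparison with db/m and 0 fell, and this was Calb1, the calcium-binding protein calbindin of the distal tubule. It measured 1054, 1250 and 923 in db/m, 1853, 1400 and 1917 in db/db, and 2121, 2263 and 2200 in db/db+TSF, with no overlap between any of the groups. The log2 difference from db/m was 0.68 for db/db (SE 0.14, limma adjusted p = 0.0483) and 1.04 for db/db+TSF (SE 0.14, limma adjusted p = 0.00336). The first did not pass in 7 of the 9 fits that omit an array, where the adjusted p reached 0.155 (without db/db replicate 1), and the second passed in all 9. The 4 podocyte markers summed to 611-711 for db/m, 722-765 for db/db and 784-835 for db/db+TSF, 3 ranges that did not overlap, and 0 of 4 passed in any comparison. The part of these segments in the Cd36 levels was not tested.

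**Figure D3:**
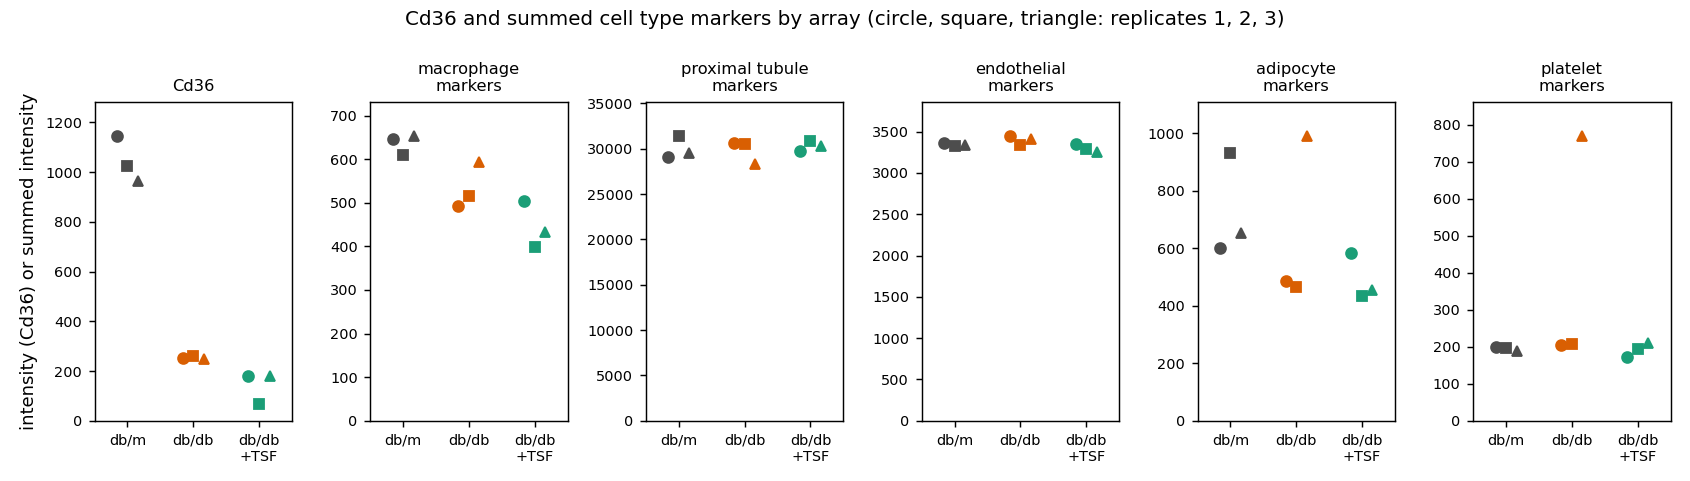
Intensity of Cd36 and summed intensity of marker genes of 5 cell types on each array (points; circle, square and triangle for replicates 1, 2 and 3), each axis starting at 0. Macrophage markers run from 609 to 653 in db/m down to 399 to 503 in db/db+TSF, proximal tubule and endothelial markers stay nearly level, and db/db replicate 3 stands out for platelet markers at 769.

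Lpl encodes lipoprotein lipase, the enzyme that frees fatty acids from triglyceride. Its intensity was 627, 672 and 443 in db/m, 465, 431 and 517 in db/db, and 372, 341 and 405 in db/db+TSF. The db/m and db/db arrays overlapped, through db/m replicate 3, while all db/db+TSF arrays lay below all others. The db/db mean was 81.2% and the db/db+TSF mean 64.2% of the lean level. Against db/db the TSF difference was -0.34 (SE 0.15, limma adjusted p = 0.415), against db/m it was -0.62 (SE 0.15, 95% interval -0.95 to -0.29, limma adjusted p = 0.0502), and db/db differed from db/m by -0.28 (SE 0.15, limma adjusted p = 0.432). The second of these lay at the threshold: it passed in 6 of 23 other settings, among them the fit without db/m replicate 3 (-0.80, adjusted p = 0.0102), and its adjusted p rose to 0.17 without db/db+TSF replicate 2. A second, dimmer probe set of Lpl had means of 4.49, 4.26 and 4.12 on the log2 scale in db/m, db/db and db/db+TSF, in the same order.

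Vldlr, the receptor for triglyceride-rich lipoproteins, measured 229, 243 and 166 in db/m, 236, 246 and 255 in db/db, and 196, 202 and 207 in db/db+TSF. The db/db and db/db+TSF arrays did not overlap, and the db/m arrays spread across both. The difference between db/db+TSF and db/db was -0.28 (SE 0.13, limma adjusted p = 0.428, unadjusted p = 0.0518), and db/db lay 0.23 above db/m (SE 0.13, limma adjusted p = 0.472), or 0.06 without db/m replicate 3, the lowest array. Neither passed.

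Of the FATP family, Slc27a2 (FATP2) is the proximal tubule member and also activates very long-chain fatty acids. It measured 3183, 3445 and 3102 in db/m, 3004, 2954 and 2757 in db/db, and 2935, 2960 and 3036 in db/db+TSF. Both db/db groups lay below every db/m array, with small differences of -0.16 (SE 0.09, limma adjusted p = 0.442) and -0.12 (SE 0.09, limma adjusted p = 0.514), and neither passed. For db/db against db/m the 95% interval ran from -0.35 to 0.03, that is, a level between 0.787 and 1.02 times that of db/m. A second, dimmer probe set of the gene averaged 4.60, 4.61 and 4.61 and showed no such step.

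Slc27a1 (FATP1), a transporter prominent in muscle and fat, measured 202, 250 and 240 in db/m, 221, 232 and 192 in db/db, and 295, 195 and 242 in db/db+TSF, with overlap throughout. Slc27a4 (FATP4), a widely made transporter and acyl-CoA synthetase, measured 218, 235 and 296 in db/m, 236, 241 and 234 in db/db, and 234, 219 and 210 in db/db+TSF. The groups overlapped, and the db/m arrays were the most spread. The 95% intervals for db/db against db/m were -0.43 to 0.23 for Slc27a1 and -0.31 to 0.19 for Slc27a4, and limma adjusted p was 0.506 or higher for both genes in all 3 comparisons.

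Fabp3, the heart-type fatty acid-binding protein, measured 97.8, 122 and 122 in db/m, 109, 118 and 128 in db/db, and 107, 128 and 133 in db/db+TSF. The groups overlapped, and the differences of 0.06, 0.05 and 0.11 were smaller than their SE of 0.12. Its second probe set gave means of 3.75, 3.60 and 3.49, with the opposite sign, so no direction is given for Fabp3. The summed striated muscle markers, which share tissues with Fabp3, were 81 to 104 over all arrays.

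Plin2, which coats lipid droplets and whose protein is kept by stored lipid, measured 274, 296 and 362 in db/m, 298, 300 and 319 in db/db, and 363, 313 and 315 in db/db+TSF. The groups overlapped. Its difference between db/db and db/m was -0.01 (SE 0.11, 95% interval -0.27 to 0.24, limma adjusted p = 0.971), which leaves room for a level between 0.832 and 1.18 times that of db/m. On the same arrays Cd36 stood at 24.2% of its db/m level.

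Counted together, 1 of the 8 genes passed in db/db against db/m, against 1.05% of all 17740 genes tested, but that gene was Cd36, which headed the list for this difference, so nothing is read from the count. In db/db+TSF against db/m 1 of 8 passed, again Cd36, beside 3.13% of all genes. This comparison uses the same db/m arrays, so nothing is read from its count either. Between the db/db groups 0 of 8 passed, as did 0% of all genes. In that comparison 2079 genes had an unadjusted p under 0.05, and limma without variance moderation also called 0. The arrays of the compared groups did not overlap for 2 of the 8 genes in db/db against db/m (18.6% of all genes), 3 in db/db+TSF against db/db (20.1%) and 3 in db/db+TSF against db/m (22.1%), in each case on the lower side. The median difference of the 8 genes was -0.08, -0.03 and -0.09 in these comparisons, where that of all genes was 0.01, -0.02 and 0.00.

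**Figure D4:**
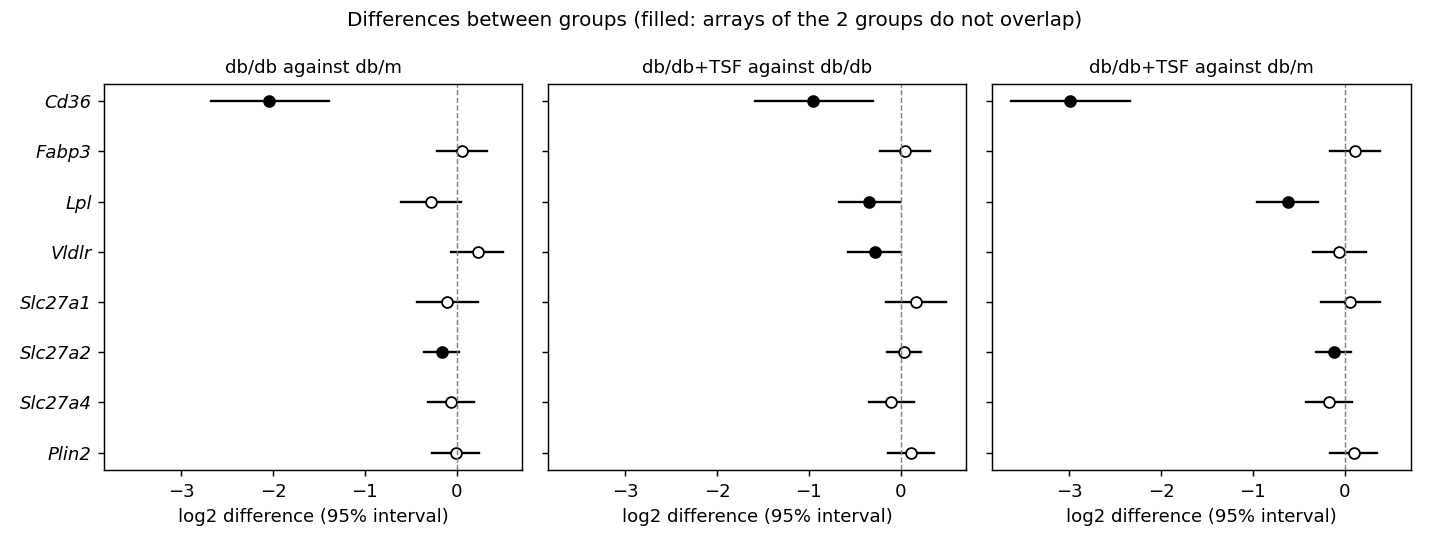
log2 difference of each gene in the 3 comparisons (points) with its 95% interval from the limma fit (lines); filled points mark genes whose arrays did not overlap between the compared groups. Cd36 lies at -2.04, -0.95 and -2.99, Lpl at -0.28, -0.34 and -0.62, and the other genes lie within 0.30 of 0.

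The spread among lean mice touched several of these genes at once. Array replicate 3 of db/m was the lowest of its group for Lpl (443) and Vldlr (166) and the highest for Slc27a4 (296) and Plin2 (362). With group means taken out, r over the 9 arrays was 0.90 for Lpl with Vldlr, 0.92 for Slc27a4 with Plin2 and -0.90 for Vldlr with Slc27a4, and without db/m replicate 3 these became 0.55, 0.77 and -0.17 over 8 arrays. Cd36 was not part of this pattern, with r between -0.08 and 0.36 to the 4 genes. The gene most like each remaining member over the 9 arrays was Psmd1 for Lpl (r = 0.960), Kdm4c for Vldlr (0.970), Fez2 for Slc27a1 (0.937), Ifi205 for Slc27a2 (0.965), Ctdsp1 for Slc27a4 (0.979), Igfn1 for Fabp3 (0.940) and Atp5d for Plin2 (0.962). Each was picked for the highest r among the tested genes, so a high value follows largely from that choice. The r values of these partner genes were not recomputed without db/m replicate 3.

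Other genes of lipid handling were read from 5 lists. Of 14 tested genes of fatty acid transport, binding and activation 0 passed in db/db against db/m, and 1 rose and 1 fell in db/db+TSF against db/m. The one that rose was Acsl4, which activates arachidonate and other polyunsaturated fatty acids, from 139, 167 and 123 in db/m to 217, 244 and 214 in db/db+TSF (log2 difference 0.66, SE 0.12, limma adjusted p = 0.0143). Its db/db arrays, at 199, 197 and 217, were also above all db/m arrays (0.52, limma adjusted p = 0.0636). The one that fell was Fabp7, the brain-type fatty acid-binding protein, from 251, 331 and 303 in db/m to 104, 149 and 151 (-1.14, SE 0.24, limma adjusted p = 0.0301). Its db/db arrays, at 311, 252 and 149, reached from one group to the other. Acsl4 did not pass once db/m replicate 1 was omitted, nor without db/db+TSF replicate 2 (adjusted p = 0.0553 and 0.0617), and the Fabp7 call without any 1 of the 3 db/m arrays (0.0576, 0.0844 and 0.0844) or of the 3 db/db+TSF arrays (0.0888, 0.064 and 0.0689).

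In the lipoprotein lipase system 0 of 10 tested genes passed in any comparison. The 2 of smallest p in db/db against db/m were Apoc1, an apolipoprotein that holds back lipoprotein clearance (log2 difference 1.27, SE 0.31, limma adjusted p = 0.0906), and Angptl8, a regulator of lipoprotein lipase (0.71, SE 0.19, limma adjusted p = 0.113). Apoc1 measured 40.6, 51.0 and 45.6 in db/m against 97.1, 188 and 74.6 in db/db, and 95.3, 66.5 and 140 in db/db+TSF, so that all 6 db/db and db/db+TSF arrays lay above db/m. The same held for Angptl8, at 32.1 to 40.2 in db/m and 49.2 to 88.8 on the other 6 arrays. In db/db+TSF against db/m Angptl8 lay at the threshold (0.79, SE 0.19, limma adjusted p = 0.0513) and passed in 6 of 23 other settings, with a lowest adjusted p of 0.0422, while its difference for db/db against db/m passed in 2. Apoc1 in db/db+TSF against db/m (1.06, SE 0.31, limma adjusted p = 0.104) passed in 2 of 23, the fit of these 2 groups alone (0.0492) and the fit without db/db replicate 2 (0.0414).

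Of 14 lipoprotein and scavenger receptor genes, 1 rose in db/db+TSF against db/m and 0 passed elsewhere. This was Mylip, the ubiquitin ligase that marks LDL and VLDL receptors for breakdown, at 419, 422 and 537 in db/m, 642, 627 and 705 in db/db, and 662, 770 and 660 in db/db+TSF (0.61, SE 0.12, limma adjusted p = 0.0207; 0.53 and adjusted p = 0.0623 for db/db against db/m). The db/m arrays lay below all others. This did not pass once db/m replicate 1 or 2 was omitted (adjusted p = 0.0786 and 0.0659), nor without db/db+TSF replicate 2 or 3 (0.0868 and 0.0578).

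Of 20 genes of lipid droplets and triglyceride storage, 1 fell in each comparison with db/m and 0 rose. In both it was Hsd17b11, a short-chain dehydrogenase found on lipid droplets. It measured 1104, 1277 and 1123 in db/m, 692, 785 and 746 in db/db, and 673, 682 and 676 in db/db+TSF, with db/m clear of both other groups. It fell by 0.65 in db/db (SE 0.09, limma adjusted p = 0.00779) and by 0.78 in db/db+TSF (SE 0.09, limma adjusted p = 0.0017) against db/m, and passed in all 9 fits that omit an array, where the adjusted p reached 0.0444 and 0.0109. Without variance moderation the first was lost (adjusted p = 0.051). The median of the 20 genes was -0.04 in both comparisons.

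The list of PPAR receptors and known PPAR targets is of interest because Cd36, Lpl, Fabp3, Slc27a1 and Plin2 are textbook PPAR targets too. Of 21 tested genes 1 rose and 0 fell in db/db against db/m, and 2 rose and 0 fell in db/db+TSF against db/m. Cyp4a14, a fatty acid omega-hydroxylase, measured 1039, 1253 and 1432 in db/m, 2151, 2052 and 2665 in db/db, and 2510, 2472 and 2371 in db/db+TSF. It rose by 0.89 (SE 0.13, limma adjusted p = 0.0101) and 0.99 (SE 0.13, limma adjusted p = 0.0033) against db/m, on the arrays where the Cd36 differences were -2.04 and -2.99. Ppara, the PPAR isotype of proximal tubule and liver, measured 199, 224 and 200 in db/m, 313, 252 and 208 in db/db, and 302, 375 and 355 in db/db+TSF, and rose by 0.72 in db/db+TSF against db/m (SE 0.14, limma adjusted p = 0.0239). The Cyp4a14 calls held in all 9 fits that omit an array, where the adjusted p reached 0.0381 and 0.016, and both were lost without variance moderation (adjusted p = 0.129 and 0.0659). Ppara did not pass once db/m replicate 1 or 3 was omitted (0.0806 and 0.0665), nor without db/db+TSF replicate 2 or 3 (0.0916 and 0.0898). The list as a whole had a median of -0.07 and 0.03 in the comparisons with db/m. Between the 2 db/db groups 0 genes of the 5 lists passed. Of the 8 calls in these lists, 7 were lost without variance moderation, all except Hsd17b11 in db/db+TSF against db/m.

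**Figure D5:**
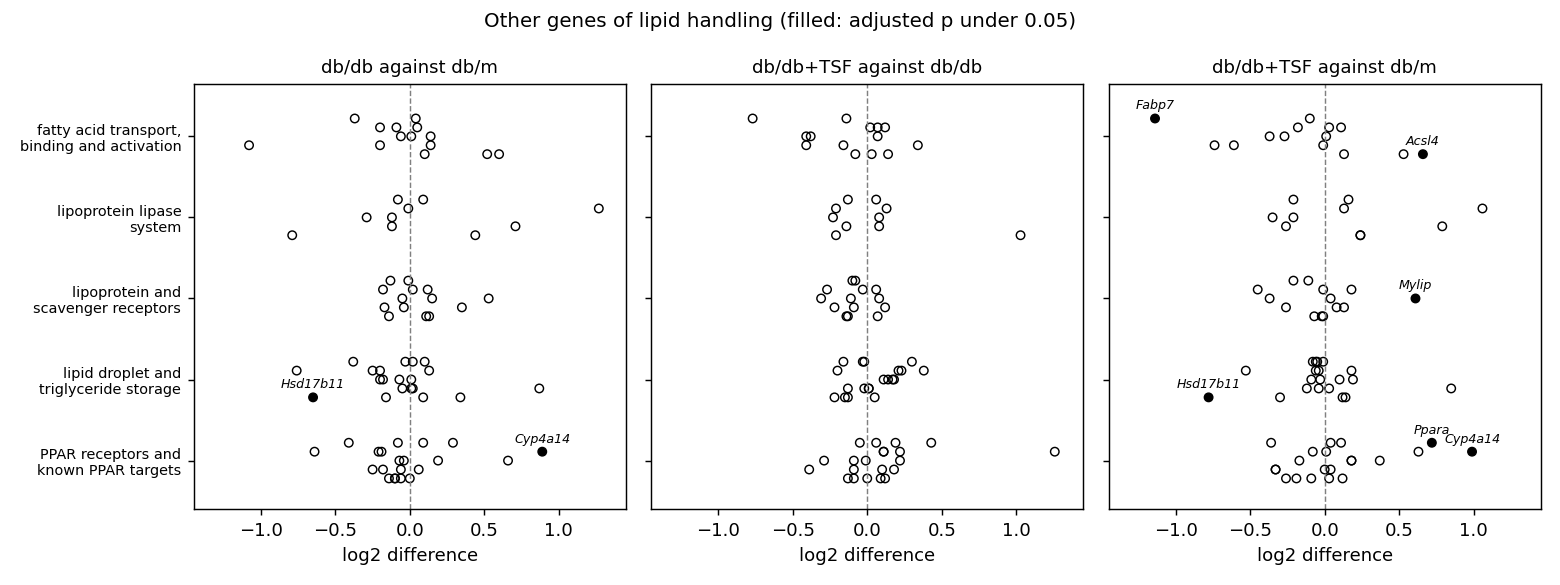
log2 difference of each tested gene of 5 lipid handling lists in the 3 comparisons (points, set apart vertically only for legibility); filled and named points passed an adjusted p of 0.05. Hsd17b11 (-0.65) and Cyp4a14 (0.89) passed in db/db against db/m, 0 genes passed in db/db+TSF against db/db, and Fabp7, Acsl4, Mylip, Hsd17b11, Ppara and Cyp4a14 passed in db/db+TSF against db/m.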

How the data were processed

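Total RNA was amplified to biotin-labelled cRNA and hybridised to Affymetrix arrays, per the labels' protocols. The deposited values are linear intensity values, 1 per probe set and array, made by the authors with Affymetrix Expression Console and Transcriptome Analysis Console, per the submitters' processing notes; for background correction, normalization and build the sources used here give nothing. No detection calls were used, so low intensities cannot be told from background, and the number of arrays limits the precision.

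Of 41345 probe sets, 23521 had 1 gene symbol in the platform annotation and were used; 1814 had several. The probe set of highest mean stood for a gene (22180 genes). Values were taken as log2(value + 1), which understates changes of dim genes, and dim genes were left out by a mean below 2.65, the 30th percentile over probe sets; all 8 members stayed among the 17740 tested. Limma 3.58.1 (R 4.3.3) fitted 1 mean per group to the 9 arrays, with eBayes and Benjamini-Hochberg adjustment over all genes; intervals are 95% intervals of that fit. The code was tested on simulated data. Members, lists and tests were chosen with earlier results of these data known. Named list genes were those past the threshold in any comparison, otherwise the 2 of smallest p in db/db against db/m; likeness was the highest Pearson r over 9 arrays, without clone names.

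Promoters and their build come from RefSeq. Alternatives changed the probe set, filter, scaling, pseudocount, variance model, arrays in the fit and replicate block, and left out each array in turn.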

Additional observations from a re-analysis of the deposited data

How the results depend on the processing

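Each result was recomputed under 23 alternatives, 9 of which left out 1 array. Cd36 stayed lower in all 3 comparisons under all of them, between -2.09 and -1.97 for db/db against db/m, -1.18 and -0.48 for db/db+TSF against db/db and -3.22 and -2.52 for db/db+TSF against db/m. Lpl stayed lower in all 3 comparisons.

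The count of the 8 genes past the threshold in db/db+TSF against db/m rose from 1 to 2, with Lpl, under a filter at the 50th percentile, median scaling, an intensity trend, robust variances and array weights (Lpl adjusted p = 0.044, 0.0317, 0.0329, 0.0456 and 0.0116), and ran from 1 to 2 with 1 array left out. Without variance moderation 0 of 8 passed in both comparisons with db/m, and 26 and 73 of all genes in place of 187 and 556. With 1 array left out the counts of all genes ran from 72 to 194 in db/db against db/m and from 213 to 563 in db/db+TSF against db/m. The first fell to 86, 122 and 109 when db/m replicate 1, 2 or 3 was omitted, 72, 121 and 82 for db/db replicate 1, 2 or 3, and 116 for db/db+TSF replicate 3. The second fell to 220 and 370 for db/m replicate 1 or 2, and 224 and 213 for db/db+TSF replicate 2 or 3.

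Replicate numbers are shared between groups. With each group's mean taken out, the correlation of same-numbered arrays ran from -0.08 to 0.15, over 0.1 in 2 of 9 pairs. Both of these joined db/db+TSF replicate 2 to replicate 2 of another group (0.15 for db/m, 0.14 for db/db). Arrays of unlike number were not compared in this way, so whether the numbers mark a pairing was not tested. With the replicate block 137, 0 and 434 genes passed, and 1, 0 and 1 of the 8; the adjusted p of Cd36 in db/db+TSF against db/db was 0.326.

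Genes near 0 changed sign, none of them past the threshold either way. The probe set of highest variance gave Fabp3 -0.15, -0.11 and -0.26 and Slc27a2 0.01, -0.01 and 0.01 in db/db against db/m, db/db+TSF against db/db and db/db+TSF against db/m. The mean of probe sets gave Fabp3 -0.05, -0.03 and -0.08. For db/db+TSF against db/db, median scaling gave Fabp3 -0.01 and Slc27a2 -0.02. For db/db against db/m, array weights gave Slc27a4 0.01 and Plin2 0.05. With 1 array left out, db/db against db/m ran from -0.04 to 0.12 for Fabp3, -0.15 to 0.06 for Slc27a4 and -0.10 to 0.10 for Plin2, db/db+TSF against db/db from -0.01 to 0.15 for Fabp3, -0.49 to 0.17 for Apoc1 and -0.18 to 0.24 for Angptl8, and db/db+TSF against db/m from -0.22 to 0.05 for Vldlr and -0.08 to 0.22 for Slc27a1. The causes were not tested.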

Other observations

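Some genes of the 5 lists that did not pass had large differences or wide spreads on these arrays. Those below are named after their values were seen and are not all such genes. Mfsd2a, a carrier of lysophospholipids, measured 7.54, 7.85 and 7.30 on the log2 scale in db/m, 6.41, 5.92 and 7.11 in db/db, and 7.57, 4.97 and 7.92 in db/db+TSF, where replicate 2 was again the lowest of all 9 arrays. Angptl4, an inhibitor of lipoprotein lipase, measured 8.52, 9.04 and 9.21 in db/m, 8.07, 7.53 and 8.80 in db/db, and 9.45, 8.82 and 9.22 in db/db+TSF. The TSF arrays lay above the db/db arrays (log2 difference 1.03, SE 0.29, limma adjusted p = 0.284), but only just, at 8.82 against 8.80 where they came closest. The arrays of these groups did not overlap for 20.1% of all genes. Pdk4, which holds pyruvate back from oxidation, measured 7.07, 6.16 and 8.13 in db/db and 9.02, 7.77 and 8.35 in db/db+TSF, with overlap (1.26, SE 0.50, limma adjusted p = 0.382). Plin4, a perilipin of fat and muscle, measured 3.93, 4.79 and 4.46 in db/m and 5.06, 4.93 and 5.79 in db/db (0.87, SE 0.29, limma adjusted p = 0.209). In db/db+TSF Plin4 measured 5.64, 4.68 and 5.41, which overlapped db/m. Nr1i2, the nuclear receptor PXR, measured 5.08, 5.32 and 5.58 in db/m and 5.80, 6.21 and 5.95 in db/db (0.66, SE 0.15, limma adjusted p = 0.0709). In db/db+TSF Nr1i2 measured 5.74, 5.87 and 5.49, which also overlapped db/m.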
